A study of Rattus norvegicus with 9 samples.

Results

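Fgf2 and Gdnf are the growth factor genes among the 29 protein-coding genes that have a named catalogue probe on a custom array run on rat lung. They were chosen by name, through their catalogue probes A_44_P212850 (Fgf2, matched to RefSeq transcript NM_019305) and A_44_P500961 (Gdnf, NM_019139), and make up 2 of those 29 genes and 2 of 38804 probes on the array. Each gene has 1 probe, spotted 10 times on every array. Whole-lung RNA came from 9 male Wistar rats, given as 6 to 8 weeks old, in 3 groups of 3 that were exposed for 90 days. The labels give no genetic change in any group. The CS group was exposed to cigarette smoke and the PM2.5 group to fine particulate matter in a study of chronic obstructive pulmonary disease, while the control rats inhaled NS, an abbreviation the labels leave unexplained. Tissue was archived after 90, 91 and 92 days for replicates 1, 2 and 3 of each exposed group and after 90 days for all controls. The labels call the replicates biological, with 1 array each.

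Fgf2 encodes basic fibroblast growth factor, a heparin-binding ligand of the FGF receptor tyrosine kinases. It acts on fibroblasts, smooth muscle and endothelium and is known for its part in vessel growth and wound repair, including repair in the lung. Gdnf encodes glial cell line-derived neurotrophic factor, a distant relative of the TGF-beta family that signals through the co-receptor GFR-alpha-1 and the tyrosine kinase Ret. It is best known for supporting neurons and for kidney and enteric nerve development, and both receptor systems feed into the MAP kinase and PI3 kinase pathways.

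Both genes lie on chromosome 2, and their upstream sequences are shown because the question below is whether they move together. The 250 bases before each annotated start come from RefSeq (build GRCr8, plus strand), at chr2:122164204-122164453 for Fgf2 and chr2:58621077-58621326 for Gdnf. The capitals mark matches to the motifs named in the next paragraph.
Fgf2: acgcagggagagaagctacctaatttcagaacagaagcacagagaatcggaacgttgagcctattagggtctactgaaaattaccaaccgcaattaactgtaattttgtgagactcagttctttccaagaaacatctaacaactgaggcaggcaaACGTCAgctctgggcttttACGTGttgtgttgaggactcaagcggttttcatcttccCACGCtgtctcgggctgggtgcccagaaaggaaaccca
Gdnf: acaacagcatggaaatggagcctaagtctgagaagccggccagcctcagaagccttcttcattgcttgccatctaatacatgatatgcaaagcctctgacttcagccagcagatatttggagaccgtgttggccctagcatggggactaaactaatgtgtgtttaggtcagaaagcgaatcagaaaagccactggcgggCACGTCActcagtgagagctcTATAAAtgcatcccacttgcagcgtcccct

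The search covered 7 motifs on both strands. The cyclic AMP response core TGACGT was matched once in each gene, by its reverse complement, and occurs in 6.95% of 33469 promoters of the same length. The hypoxia response core ACGTG was also matched once in each (16.6% of promoters), and in Gdnf it overlaps the cyclic AMP response core. The core GCGTG, which the aryl hydrocarbon receptor binds, was matched once in Fgf2 and not in Gdnf (25.9% of promoters). A TATA box, TATAAA, stood 30 to 25 bases before the start of Gdnf and was not matched in Fgf2 (12.9% of promoters). The GC box GGGCGG (30.5%), the AP-1 site TGANTCA (6.34%) and the antioxidant response core TGACNNNGC (10.1%) were matched in neither window. These matches describe letters only.

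The unscaled signal shows how dim both genes were. Each value is the geometric mean over the retained spots of the probe, after the scanner software subtracted background. All 180 member spots were well above background, 10 were left out as outliers and 0 were saturated. The spots of one probe on one array had an SD of 0.05 to 0.19 log2 units, which gives a standard error of 0.02 to 0.06. Before subtraction the spots averaged 2.66 to 6.69 times their local background.

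For Fgf2 the unscaled signal was 18.5, 20.4 and 21.8 on control arrays 1, 2 and 3. It was 36.9, 20.8 and 20.5 on CS arrays 1, 2 and 3. On PM2.5 arrays 1, 2 and 3 it was 19.2, 27.2 and 23.6. Only CS 1, PM2.5 2 and PM2.5 3 lay above every control array, so the groups overlap before scaling. Without scaling, 2.86% of all probes had every CS array above every control array, and 2.85% every PM2.5 array. For Gdnf the unscaled signal was 37.7, 40.0 and 38.5 on the control arrays. It was 53.2, 38.6 and 35.3 on the CS arrays, and 29.7, 39.4 and 38.1 on the PM2.5 arrays. Only CS 1 lay above every control array, and the groups overlap again.

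**Figure D1:**
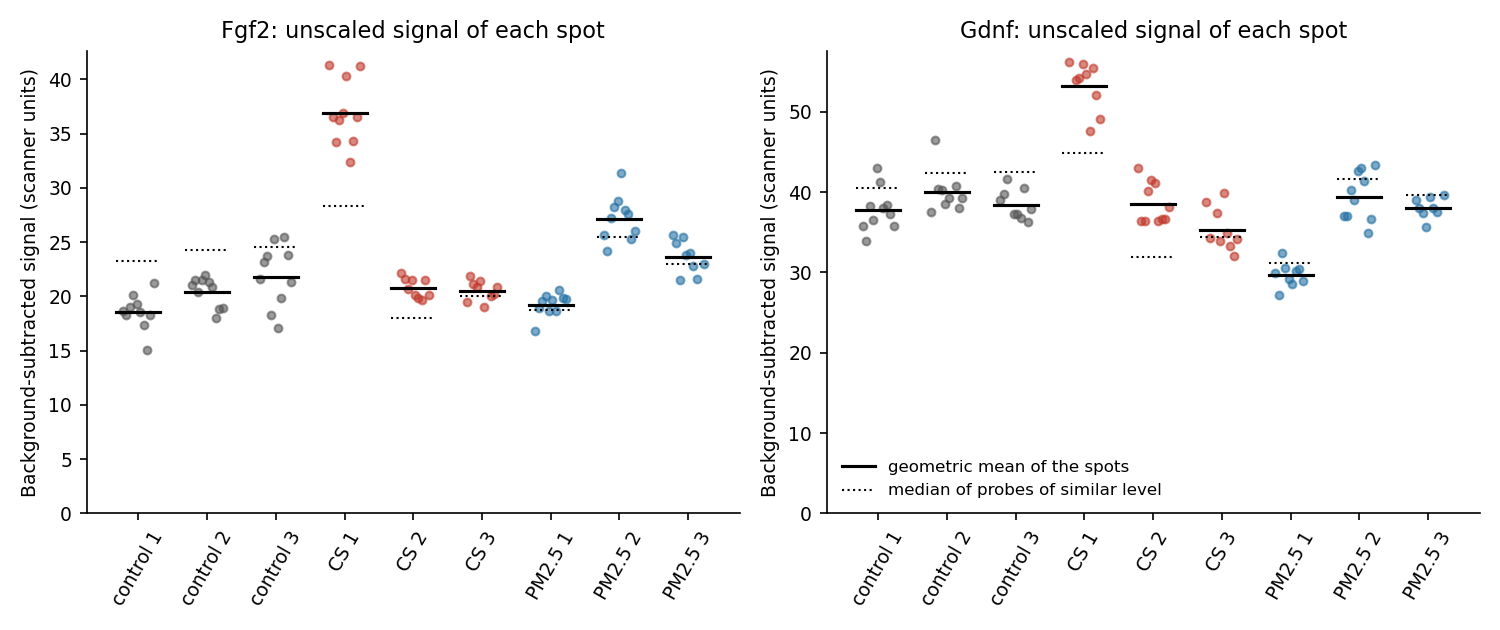
Unscaled background-subtracted signal (scanner units, axis from 0) of each retained spot of the Fgf2 and Gdnf probes on the 9 arrays; solid bars are the geometric mean of the spots and dotted bars the median of probes of similar level on the same array. CS 1 is highest for both genes (36.9 for Fgf2, 53.2 for Gdnf).

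Without scaling, neither gene passed against control. The log2 change of Fgf2 was 0.31 (SE 0.24, adjusted p = 0.411) in CS and 0.19 (SE 0.24, adjusted p = 0.643) in PM2.5. For Gdnf it was 0.11 (SE 0.22, adjusted p = 0.817) in CS and −0.13 (SE 0.22, adjusted p = 0.762) in PM2.5. One array carries much of the unscaled CS values. Without CS 1 the change of Fgf2 was 0.03 and that of Gdnf −0.07. Adjusted p-values are from limma with Benjamini-Hochberg adjustment over 37643 probes (37641 for the authors' values), and a probe passed below 0.05.

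The arrays themselves differed in brightness. The 75th percentile of the signal over all spots that are not controls was 326 to 339.9 on control arrays and 159 to 259.5 on exposed arrays. Each array was then scaled to its 75th percentile over probes, taken after spots were averaged, which is not the same value. Slides were inferred: arrays with the same scan time in the file headers were taken to share a slide. The control arrays had a scan time and a scan day of their own. A slide or scan effect and the control condition therefore cannot be told apart. The E1A spike-in probes, designed without a target in rat RNA, were 0.69 log2 units higher in CS and 0.81 higher in PM2.5 than in control after this scaling.

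After scaling to the 75th percentile, Fgf2 was higher in CS than in control lung by 2.06-fold (95% interval 1.40 to 3.04). Its level relative to that percentile was −2.57, −3.38 and −3.25 in CS 1, 2 and 3 and −4.24, −4.12 and −3.96 in control 1, 2 and 3, in log2 units. Every CS array lay above every control array, which was also true of 56.8% of all probes. The group levels were −3.06 ± 0.44 (SD, n = 3) and −4.11 ± 0.14 (SD, n = 3), a log2 change of 1.04 (SE 0.25, limma adjusted p = 0.0115).

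Gdnf was higher in CS by 1.79-fold (95% interval 1.35 to 2.38). Its scaled level was −2.04, −2.49 and −2.46 in CS 1, 2 and 3, and −3.22, −3.15 and −3.14 in control 1, 2 and 3. The control arrays lay close together and below every CS array. The group levels were −2.33 ± 0.25 (SD, n = 3) and −3.17 ± 0.04 (SD, n = 3), a log2 change of 0.84 (SE 0.18, limma adjusted p = 0.00817). Under this scaling both genes thus passed as higher in CS. Of all probes 47.2% passed in the same test: 38.7% rose and 8.42% fell. The median log2 change was 0.45.

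In PM2.5 lung the scaled Fgf2 level was −3.11, −2.73 and −3.51 in replicates 1, 2 and 3. These values lie above all 3 control arrays and overlap those of the CS arrays. The mean was −3.12 ± 0.39 (SD, n = 3), a log2 change from control of 0.99 (SE 0.25, limma adjusted p = 0.0104), or 1.99-fold (95% interval 1.35 to 2.93). For Gdnf the scaled level was −2.49, −2.19 and −2.82, with a mean of −2.50 ± 0.32 (SD, n = 3). It also stood above every control array. The log2 change was 0.67 (SE 0.18, limma adjusted p = 0.0143), or 1.59-fold (95% interval 1.20 to 2.11). Of all probes, 56.8% passed in this comparison (47.1% rose and 9.78% fell), and 55.9% had every PM2.5 array above every control array. The median log2 change was 0.51. Without control 1, Gdnf in PM2.5 no longer passed (log2 change 0.64, adjusted p = 0.0512). The comparisons with control share the control arrays.

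Both results change in size with the scaling. After quantile normalization Fgf2 was 0.49 log2 units higher in CS (adjusted p = 0.0180) and 0.34 higher in PM2.5 (adjusted p = 0.0650, not passing). Gdnf was 0.34 higher in CS (adjusted p = 0.0346) and 0.09 higher in PM2.5 (adjusted p = 0.561, not passing). In that scaling 12% of all probes rose in CS and 14.7% in PM2.5. After centring on the median of detected probes Fgf2 passed in both exposures (0.66 in CS and 0.55 in PM2.5), and Gdnf passed in CS (0.45) but not in PM2.5 (0.22, adjusted p = 0.186). With that centring 9094 of 37643 probes passed in CS and 12524 in PM2.5, in either direction. The loss of a call in PM2.5 does not by itself separate the exposures, whose direct comparison is given further on.

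The authors' own log2 values gave nearly the same picture as quantile normalization. For Fgf2 they were 4.17, 4.24 and 4.30 in control, 4.98, 4.66 and 4.55 in CS, and 4.58, 4.66 and 4.51 in PM2.5. All exposed arrays lie above all control arrays, but the share of probes separated in this way was not counted for these values. The change from control was 0.49 in CS (adjusted p = 0.0176) and 0.35 in PM2.5 (adjusted p = 0.0605). For Gdnf they were 5.14, 5.14 and 5.12 in control, 5.56, 5.52 and 5.33 in CS, and 5.22, 5.25 and 5.14 in PM2.5. The CS arrays lie above all other arrays here. Every PM2.5 array also lies above every control array, but PM2.5 3 (5.141) barely exceeds control 2 (5.138). The change was 0.34 in CS (adjusted p = 0.0312) and 0.07 in PM2.5 (adjusted p = 0.635). With the authors' values 9326 of 37641 probes passed in CS and 11229 in PM2.5, in either direction.

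**Figure D2:**
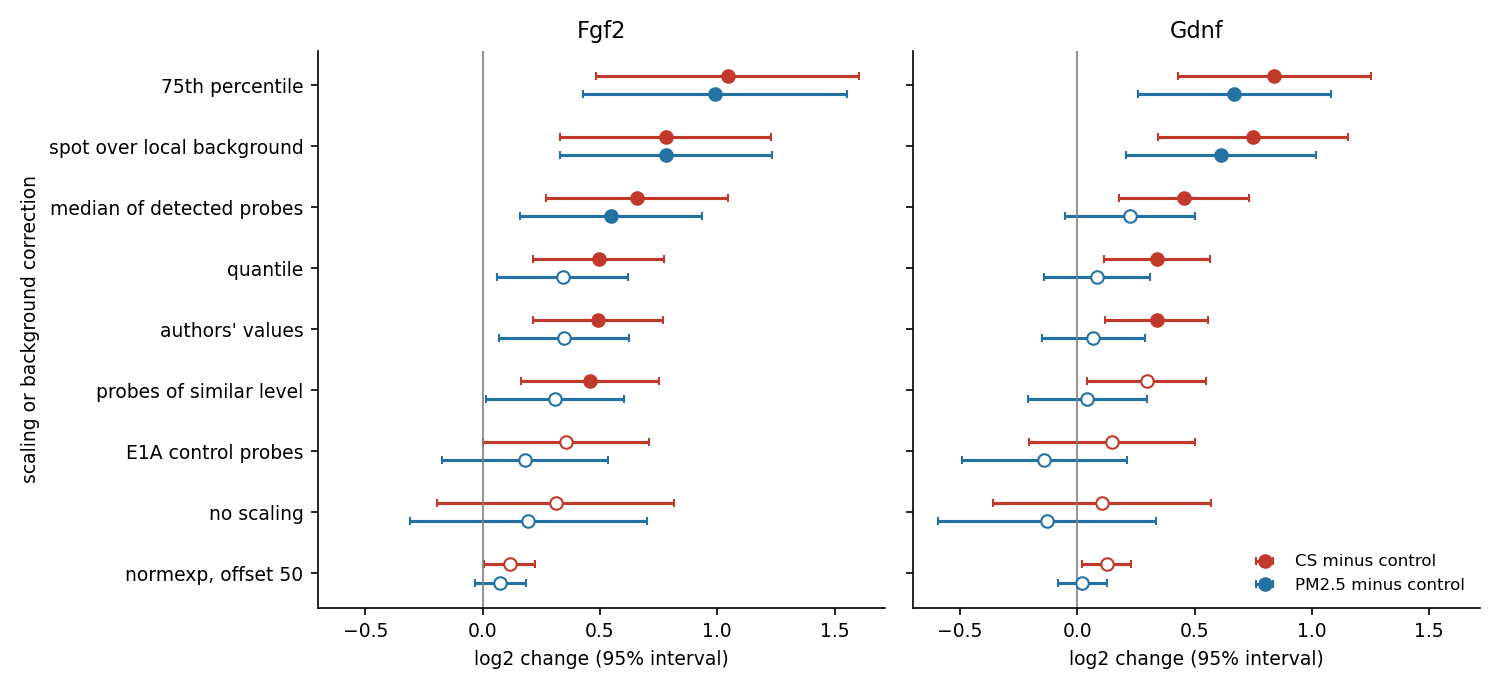
Log2 change against control (horizontal axis, points with 95% intervals) of Fgf2 and Gdnf for CS and PM2.5 under 9 ways of scaling the arrays or correcting background; filled points passed at an adjusted p below 0.05. The changes run from 1.04 down to 0.12 for Fgf2 in CS, and from 0.67 to −0.14 for Gdnf in PM2.5.

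The median change was larger among dim probes than among bright ones in this scaling, so each gene was set beside the 2.66% of tested probes nearest to it in mean level. With all tested probes cut by mean level into 10 bins, in the bin that holds Fgf2 the median log2 change was 0.60 in CS and 0.71 in PM2.5. In the bin that holds Gdnf it was 0.55 in CS and 0.64 in PM2.5. The bin with the smallest medians, at levels of −0.54 to 0.71, had 0.05 and 0.02, and the brightest bin had 0.20 in both exposures.

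**Figure D3:**
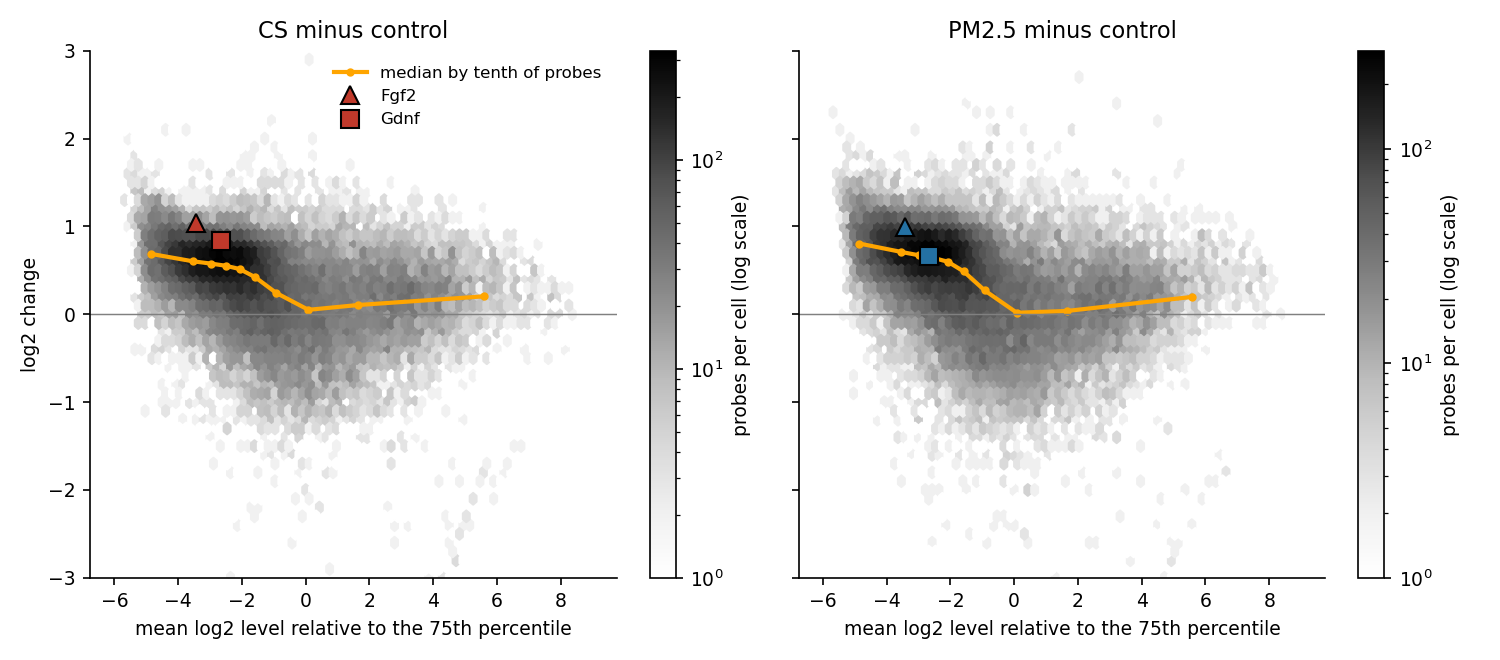
Log2 change against control (vertical axis) by mean level relative to the 75th percentile (horizontal axis) for all 37643 tested probes, in grey by number of probes, with the median in each of 10 bins of level in orange and Fgf2 and Gdnf as coloured marks. Fgf2 lies above the orange line in both panels (1.04 and 0.99), as does Gdnf in CS (0.84), while in PM2.5 (0.67) Gdnf lies close to it (0.64).

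Relative to the median of its neighbours in level, Fgf2 was higher in every exposed lung than in any control lung. The neighbours were matched on the mean over all 9 arrays, which sets where 0 lies, so only differences between groups are read. The level relative to that median was −0.33, −0.25 and −0.17 log2 units in control 1, 2 and 3. It was 0.38, 0.20 and 0.03 in CS 1, 2 and 3, and 0.04, 0.09 and 0.04 in PM2.5 1, 2 and 3. The 6 exposed arrays do not overlap the 3 control arrays, but how many other probes separate in this way on this measure was not counted. Their means were 0.13 and −0.25, a difference of 0.38 (exact permutation test over arrays, two-sided, p = 0.0238, the smallest that 6 against 3 allows). With neighbours matched on the control arrays alone, the means were 0.33 and −0.0044, a difference of 0.34 (exact permutation test, p = 0.0238). The control arrays had their own scan day, so no exact test here or below separates exposure from a slide or scan effect. By group the difference from control was 0.46 in CS and 0.31 in PM2.5. With each array centred on these neighbours, limma gave an adjusted p of 0.0385 for CS and 0.121 for PM2.5. In that fit 6779 of 37643 probes passed in CS and 9449 in PM2.5, in either direction. Of the neighbours, 2.90% had a larger change than Fgf2 in CS and 10.9% in PM2.5.

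Gdnf, read the same way, was highest on CS arrays, with PM2.5 arrays close to control. Its level relative to its neighbours' median was −0.10, −0.09 and −0.14 log2 units in control 1, 2 and 3 and 0.25, 0.27 and 0.04 in CS 1, 2 and 3. In PM2.5 it was −0.07, −0.08 and −0.06, just above the control arrays and below all CS arrays. How many other probes separate in this way on this measure was not counted. The exposed mean was 0.06 and the control mean −0.11, a difference of 0.17 (exact permutation test, two-sided, p = 0.0238, the smallest allowed). Without CS 1 or without CS 3 that p was 0.0714, where 5 against 3 allows 0.0357, so the test rests on those arrays (exact permutation tests). With neighbours matched on the control arrays alone the means were 0.13 and −0.0010, a difference of 0.13 (exact permutation test, p = 0.262). By group the difference was 0.30 in CS (limma adjusted p = 0.0979) and 0.04 in PM2.5 (adjusted p = 0.817), so neither passed with this centring. Of the neighbours, 7.09% had a larger change than Gdnf in CS and 47.9% in PM2.5.

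**Figure D4:**
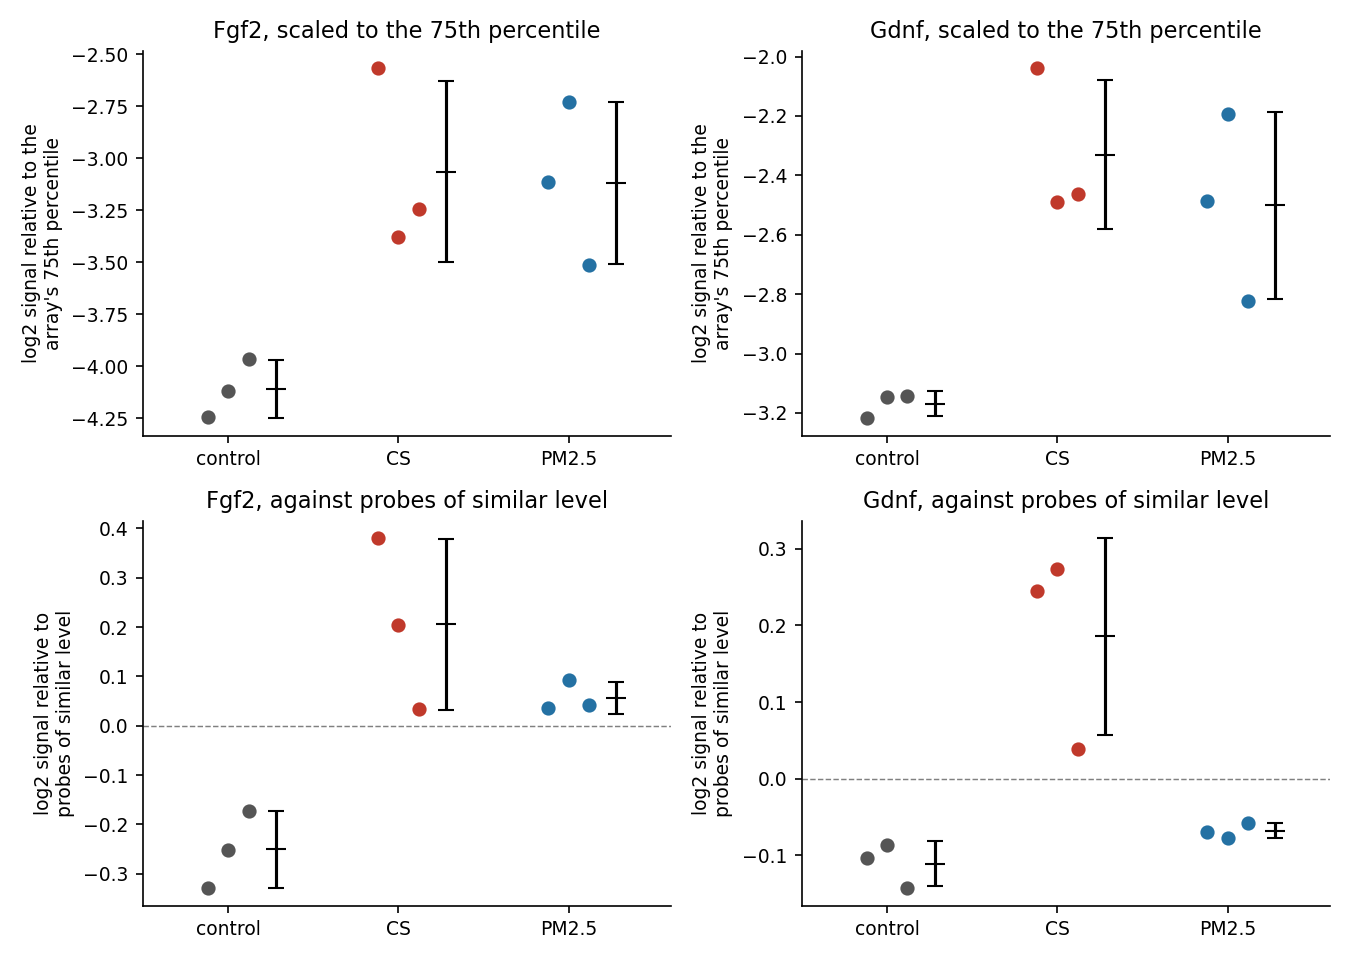
Level of Fgf2 and Gdnf in each array (points, replicates 1 to 3 from left to right in each group) with group mean and SD (bars, n = 3), as log2 signal relative to the array's 75th percentile (top) and relative to probes of similar level (bottom, dashed line at 0). Control arrays lie lowest in all 4 panels, and for Gdnf the PM2.5 arrays lie 0.04 above the control mean in the bottom panel. For the bottom panels the share of probes separated in this way was not counted.

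The genes can also be read against each other within an array, where any scaling by a constant drops out. This comparison was added after the data were seen. The Fgf2 minus Gdnf log2 difference averaged −0.94 ± 0.11 (SD, n = 3) in control, −0.73 ± 0.19 (SD, n = 3) in CS and −0.62 ± 0.08 (SD, n = 3) in PM2.5. It was −0.53, −0.89 and −0.78 in CS 1, 2 and 3, so CS 2 lies within the control range of −1.03 to −0.82, and all PM2.5 arrays lie above that range. The exposed mean was 0.26 log2 units above the control mean (exact permutation test, two-sided, p = 0.0476). Over the 3 exact tests in their main setting, Benjamini-Hochberg adjustment gave 0.0357, 0.0357 and 0.0476. It does not cover the exact tests under alternative settings. With spot signal over local background in place of the subtracted signal the difference was 0.10 (exact permutation test, p = 0.238). After normexp with an offset of 50 it was 0.02 (exact permutation test, p = 0.452), and there the change in CS was 0.12 for Fgf2 and 0.13 for Gdnf. Which gene changed more is thus not settled across background corrections. Of the 9 comparisons that left out an array, 1 passed, and those without a control array could not pass.

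CS and PM2.5 lung did not differ past the threshold for either gene. The CS minus PM2.5 difference in scaled level was 0.05 for Fgf2 (95% interval −0.51 to 0.61, limma adjusted p = 0.972) and 0.17 for Gdnf (95% interval −0.24 to 0.58, limma adjusted p = 0.765). Of all probes, 5.88% passed in this comparison. CS 2 and 3 and PM2.5 1 and 2 had the same scan time and were taken to share a slide. Between them the CS minus PM2.5 difference was −0.39 for Fgf2 and −0.14 for Gdnf. Read against probes of similar level on that slide, it was 0.05 for Fgf2 and 0.23 for Gdnf, so neither gene has a settled sign.

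The rank of each gene among all tested probes describes the same arrays without a scaling constant. Fgf2 stood above 12.3% ± 0.91 (SD, n = 3) of probes in control lung, 20.7% ± 4.34 (SD, n = 3) in CS and 17.8% ± 1.43 (SD, n = 3) in PM2.5. The control ranks, 11.3% to 13.2%, lie below all exposed ranks, but the share of probes whose ranks separate in this way was not counted. Gdnf stood above 28.7% ± 0.56 (SD, n = 3) of probes in control, 36.4% ± 3.21 (SD, n = 3) in CS and 30.6% ± 1.03 (SD, n = 3) in PM2.5. Its PM2.5 ranks start at 29.4%, against a highest control rank of 29.2%. The order of the groups was control, PM2.5, CS for both genes, and PM2.5 and CS overlap for Fgf2.

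Both genes sit in the range of signal that the E1A spike-in probes give. Of the 10 E1A probes, 1 to 3 were dimmer than Fgf2 on each array, and 3 to 9 were dimmer than Gdnf. When each array was centred on the median of the E1A probes, Fgf2 was 0.35 higher in CS (adjusted p = 0.163) and 0.18 higher in PM2.5 (adjusted p = 0.451), and Gdnf was at 0.15 in CS (adjusted p = 0.586) and −0.14 in PM2.5 (adjusted p = 0.573). The part that non-specific signal plays in either result was not tested.

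The named genes most like each growth factor over the 9 arrays were sought among the other 28, by Pearson correlation of the scaled level, as a description. Fgf2 was most like Gdnf (0.98), Lhcgr (0.97), the luteinizing hormone receptor gene, and Napepld (0.91), whose enzyme releases N-acylethanolamines. Gdnf was most like Fgf2 (0.98), Lhcgr (0.94) and Odf2l (0.90), a gene of the centrosome. After quantile normalization Fgf2 and Gdnf were still each other's nearest gene, at 0.86, while Napepld stood at 0.43 with Fgf2. The points share the group differences and the scaling constant of each array. Lhcgr and Napepld were also dim, with scaled control means of −4.41 and −3.92, while that of Odf2l was −0.62. Whether likeness follows level was not tested. With group means removed the Fgf2 and Gdnf correlation was 0.97, but Gdnf was nearer to Nlrp3 (0.98), and Fgf2 stood at 0.97 with P2rx2 and 0.96 with Lhcgr. For the unscaled signal Fgf2 was nearer to Lhcgr (0.87) than to Gdnf (0.82). With centring on probes similar in level to Fgf2 it was likewise (0.73 against 0.59). With centring on probes similar in level to Gdnf, Gdnf was nearer to Fgf2 (0.73) than to Lhcgr (0.41). The pair was therefore not each other's nearest gene in every setting. Nlrp3, P2rx2 and these Lhcgr values were chosen after they were seen.

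Few partners of these factors could be read. Of 22 FGF ligands, 1 had a named probe (Fgf2), and of 11 GDNF family ligands and receptors, 1 did (Gdnf). Of 17 FGF receptors and co-receptors, 1 did, Cdh2, which encodes N-cadherin, an adhesion molecule that binds FGF receptors. Of 27 genes of growth factor signalling and feedback and 15 other growth factors of lung remodelling, 0 did. The unscaled Cdh2 signal was 149 to 161 on control arrays and 42.1 to 78.8 on exposed arrays, with no overlap. The exposed arrays were dimmer as a whole before scaling. The share of probes with every exposed array below every control array was not counted. The scaled level of Cdh2 fell by 0.50 log2 units in CS (SE 0.17, limma adjusted p = 0.0383). In PM2.5 it fell by 0.61 (SE 0.17, limma adjusted p = 0.0153). Both changes were opposite in direction to those of the growth factors. Of all probes, 8.42% passed as lower in CS and 9.78% in PM2.5. Of 51 lung cell type markers, 0 had a named probe, so the tissue label could not be checked against markers. In whole lung, fewer cells of a type and less RNA per cell cannot be told apart for any of these genes.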

How the data were processed

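The authors deposited 1-colour scanner files as background-subtracted intensity, which per the file headers came from Feature Extraction 11.0.1.1, and as other values the flags of each spot and the control code. They also deposited log2 values for each probe, whose column medians were all 6.03 and whose sorted columns were nearly equal; how these were made is not given in the sources used here. RNA was labelled with the Quick Amp kit, per the labels' protocols.

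Outlier spots were left out, spots of a probe were averaged on the log2 scale, and each array's 75th percentile over probes was subtracted. Probes well above background on all 3 arrays of a group were kept, 37643 in all. Group means were compared with limma 3.58.1 in R 4.3.3 (lmFit, eBayes, two-sided, all 9 arrays, Benjamini-Hochberg). Exact permutation tests used scipy 1.17.1. The fit was tested on simulated data. Probes were named by RefSeq accession, and no array coordinates are given, because the header names an older build than the gene table. Named genes are the members, list members with a probe and the 3 most correlated genes. The members, lists and tests were chosen with earlier results of these data known. Alternatives changed the scaling, background, filter, spots, variance model, blocks and arrays. The number of arrays limits the precision.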

Additional observations from a re-analysis of the deposited data

How the results depend on the processing

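With the replicate number as a block the 4 changes against control kept their size and passed (Fgf2 1.04 and 0.99, Gdnf 0.84 and 0.67, adjusted p 0.0208 to 0.0286), and the block changed no call of either gene. Of 37643 probes, 12448 passed in CS and 17605 in PM2.5 with that block. Deviations of same-numbered arrays correlated at −0.45 to 0.18, and those of other pairs at −0.61 to 0.59. With 3 arrays a group these values cannot settle whether the numbers pair the arrays. Filters on dim probes, the summary over spots, the variance model, fits of only 2 groups and signal over local background changed no call against control. With slide as a random block none of the 4 passed: Fgf2 was 0.98 in CS (adjusted p = 0.110) and 1.09 in PM2.5 (0.0539), Gdnf 0.78 (0.0929) and 0.72 (0.0704). Treating the 3 controls as 1 sample, none passed, at unchanged size (1.04, 0.99, 0.84 and 0.67, adjusted p 0.147 to 0.198), which leaves fewer samples. With normexp and an offset of 50 none passed: Fgf2 0.12 and 0.0753, Gdnf 0.13 and 0.0225. With no scaling they were 0.31 and 0.19 for Fgf2 and 0.11 and −0.13 for Gdnf, and centred on E1A probes 0.35 and 0.18 for Fgf2 and 0.15 and −0.14 for Gdnf; both of these settings were added after seeing the data. In PM2.5, Fgf2 was not called after quantile normalization (0.34), with the authors' values (0.35) or centred on probes of similar level (0.31), nor was Gdnf (0.0856, 0.0692 and 0.0427) or Gdnf centred on the median (0.22). Gdnf in CS was not called when centred on probes of similar level (0.30). The cause was not tested.

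Leaving out 1 array gave 0.80 to 1.20 for Fgf2 in CS, 0.80 to 1.19 in PM2.5, 0.69 to 0.92 for Gdnf in CS and 0.51 to 0.83 in PM2.5. For CS minus PM2.5 it gave −0.19 to 0.25 for Fgf2 and 0.01 to 0.32 for Gdnf. That comparison changed sign for Fgf2 with signal over background (−0.000885), with slide as a random block (−0.11), and for both genes with slide as a fixed block, on the shared slide alone or without arrays on slides of their own (Fgf2 −0.39, Gdnf −0.14).

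Against probes of similar level the exposed minus control difference ranged from 0.33 to 0.42 for Fgf2 and from 0.12 to 0.19 for Gdnf without 1 array. With 2 control arrays the exact test cannot go below 0.0714, and Gdnf also missed the threshold without CS 1 or CS 3. For Gdnf it missed the threshold with signal over background (0.12, p = 0.167, exact) and with neighbours matched on control arrays (0.13, p = 0.262, exact). Fgf2 minus Gdnf gave 0.22 to 0.32 without 1 array, 0.10 with signal over background (p = 0.238, exact) and 0.0212 with normexp (p = 0.452, exact), the last added after seeing the data.

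The count of probes called was 17756 for CS and 21392 for PM2.5 against control. It was 9313 and 11231 after quantile normalization, 2371 and 7901 with slide as a random block, and 166 and 1423 with the controls as 1 sample.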
